A study of Homo sapiens with 6 samples.

Results

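Collagen chains were followed by RNA sequencing in DCIS.COM cells with and without knockdown of BCL9. A row of the deposited expression table was taken as a chain where it was protein-coding and its symbol was COL, a number, A and a number, and COL17A1 was left out. This gave 43 chains among 58676 rows, of which 19821 were protein-coding. DCIS.COM is an established human breast cancer cell line of basal character that is used as a model of ductal carcinoma in situ (DCIS), and all cells were grown in culture flasks. Both groups carried the lentiviral vector PLKO.1: NS control cells with a non-silencing insert and BCL9 KD cells with a short hairpin RNA against BCL9, each in 3 samples from separate flasks. A single hairpin was used, so an effect of lower BCL9 and any other effect of that hairpin cannot be told apart. Transduced cells were grown in puromycin and used within 5 passages, and the number of clones behind each line is not given in the sources used here.

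Collagens are triple helices wound from chains that are each made from a gene of their own. Fibrillar collagens (types I, II, III, V, XI, XXIV and XXVII) form the cables of stroma, and FACITs sit on the surface of those cables. Type IV collagen forms the sheet of the basement membrane, the layer around a breast duct that carcinoma cells cross when they become invasive. The type IV genes lie in pairs with their starts side by side on opposite strands, COL4A1 with COL4A2 and COL4A5 with COL4A6, and the proteins of a pair assemble into heterotrimers.

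The samples held between 15222452 and 26949026 reads counted on genes. Levels are given as FPKM, the reads on a gene scaled by its length and by the reads counted in the sample, so levels of different chains can be set side by side. The groups were compared with limma on log2(FPKM + 0.5) over 13745 genes with a mean of at least 0.5 FPKM, and a gene was called at a Benjamini-Hochberg adjusted p under 0.05. Fold changes are BCL9 KD minus NS control on that log2 scale, which understates the change of low genes. BCL9, the targeted gene, was at 6.25, 6.24 and 5.34 FPKM in the NS control samples. It was at 2.86, 2.78 and 2.59 FPKM in the knockdown samples (log2 fold change −0.99, SE 0.0933, adjusted p = 0.00773). Without NS control replicate 2, BCL9 KD replicate 2 or BCL9 KD replicate 3, the limma adjusted p of BCL9 itself was 0.0636, 0.0589 and 0.0700. All 9 genes of a basal epithelial list were expressed, of which CDH1 and EPCAM mark epithelium in general. The list summed to 1972 to 2109 FPKM in NS control and 2003 to 2057 FPKM in BCL9 KD, and 0 of the 9 were called. Summed luminal markers were 434.5 to 552.1 FPKM against 396.3 to 413.8 FPKM, with 0 of 5 tested markers called. Of 7 mesenchymal markers only FAP passed the filter (0.817 and 1.23 FPKM on average, adjusted p = 0.262), the list summed to 0.669 to 1.42 FPKM against 1.39 to 1.68 FPKM, and the fibroblast markers LUM, DCN and THY1 had at most 1, 4 and 2 reads in any sample. Leukocyte markers had at most 2 reads. Among the 3 endothelial markers, PECAM1 was called (2.10 and 3.45 FPKM, log2 fold change 0.61, adjusted p = 0.0477), while CDH5 and VWF had at most 5 reads. The PECAM1 call was kept without NS control replicate 3 (0.0472) and lost without any other sample (0.0540 to 0.186), as it was with median-of-ratios scaling (0.0595), quantile normalization (0.0863), no trend (0.0632) and genes of low FPKM kept (0.127). Where these lists moved with a chain described below, their part in the result was not tested. In bulk samples such as these, fewer cells of a type and less RNA per cell cannot be told apart.

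The results turn on the head-to-head type IV pairs, so the stretch between the paired starts is shown for each. RefSeq promoter windows (GRCh38.p14, 250 bases before to 50 bases from each start) were found for 31 of the 43 chains. The COL4A1 start at position 110307157 (minus strand) and the COL4A2 start at 110307284 (plus strand) are 127 bases apart on chromosome 13, and the whole stretch between them lies in both windows. A COL4A6 start at 108439458 (minus strand) and the COL4A5 start at 108439838 (plus strand) are 380 bases apart on chromosome X, and the 121 bases that both windows cover are shown. RefSeq gives COL4A6 another start at 108438422, farther from COL4A5, whose window is not shown. Sequences are on the plus strand, 5′ to 3′, and capitals mark motif matches.
COL4A1 and COL4A2, chr13:110307158-110307283: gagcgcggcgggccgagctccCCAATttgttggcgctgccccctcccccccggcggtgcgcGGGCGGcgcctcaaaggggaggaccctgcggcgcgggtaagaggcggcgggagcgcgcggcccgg
COL4A6 and COL4A5, chrX:108439588-108439708: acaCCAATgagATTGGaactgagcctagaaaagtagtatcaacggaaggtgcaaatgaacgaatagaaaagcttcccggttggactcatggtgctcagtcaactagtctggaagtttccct
The first stretch is 80.2% G and C and holds 1 CCAAT box (CCAAT) and 1 GC box (GGGCGG), and the second is 44.6% G and C and holds 2 CCAAT boxes on opposite strands. Both strands were searched, the matches did not overlap, and the shares of all 35116 RefSeq windows that held the letters were counted at the length and distance of each stretch. In the 126 bases before the start, 21.1% held CCAAT and 34.6% held GGGCGG. In the 121 bases from 250 to 130 before the start, 15.0% held CCAAT and 20.8% held GGGCGG. The TATA box letters TATAAA, the STAT site letters TTCNNNGAA and the TCF/LEF site letters ATCAAAG were not in either stretch, and they were in 5.9%, 3.0% and 1.1% of all windows at the place of the first stretch and in 5.3%, 3.4% and 1.2% at that of the second. A match of letters is a description and was not measured as a bound site.

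Most collagen genes were low in these cells, with 30 of 43 chains under a mean of 0.5 FPKM. Of the 43 chains, 13 had a mean of at least 0.5 FPKM and 19 had at most 10 reads in every sample. COL3A1 (a major fibrillar collagen of stroma), COL9A1 and COL23A1 had 0 reads in all 6 samples. Type IV was the class with the most members expressed, with 4 of 6 chains tested and no chain at or under 10 reads. Only 3 of 11 fibrillar chains and 3 of 10 FACITs were tested, together with 1 of 2 multiplexins, 1 of 5 beaded filament chains and 1 of 3 hexagonal network chains. No transmembrane chain, and neither COL7A1, COL26A1 nor COL28A1, reached the filter. COL1A1 lay just inside it with a mean of 0.555 FPKM and COL7A1 just outside with 0.452 FPKM.

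**Figure D1:**
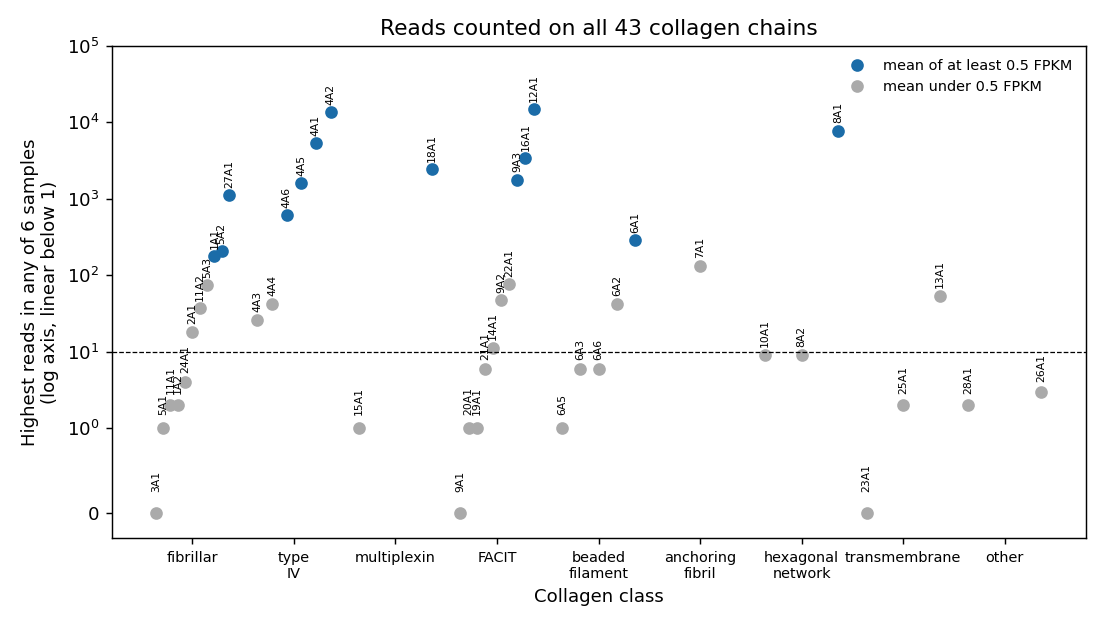
Highest number of reads in any of the 6 samples (log axis, linear below 1) for each of the 43 chains, grouped by collagen class, with blue points for the 13 chains with a mean of at least 0.5 FPKM and grey for the other 30. The dashed line marks 10 reads, and 19 chains lie at or under it, among them COL1A2 and COL5A1 with at most 2 and 1 reads.

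Summed over all 43 chains, the level was 203, 234 and 222 FPKM in the NS control samples and 225, 206 and 205 FPKM in the BCL9 KD samples, or 219 ± 15.7 and 212 ± 10.9 (SD, n = 3). The groups overlapped, and the difference of −7.21 FPKM was smaller than the SD of either group. That difference was −15.6 FPKM without NS control replicate 1, 0.0108 without NS control replicate 2, −13.5 without BCL9 KD replicate 1 and −11.8 with median-of-ratios scaling. The makeup of that sum differed. Type IV chains made up 47.7 to 50.7% of it in NS control and 39.6 to 40.8% in BCL9 KD, while FACITs made up 28.8 to 31.6% and 35.1 to 36.9%. Neither range overlapped between the groups, but the shares depend on each other, since all chains share a total. The FACIT sum itself overlapped, at 58.4 to 74.0 FPKM in NS control and 72.4 to 83.0 FPKM in BCL9 KD. Fibrillar chains contributed only 4.32 to 5.58 FPKM in NS control and 5.25 to 5.94 FPKM in BCL9 KD. No test was made on these sums.

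The 8 most abundant chains were COL4A2, COL12A1, COL8A1, COL4A1, COL16A1, COL9A3, COL18A1 and COL4A5, in that order of mean FPKM. In NS control samples COL4A2 stood above every other chain, with no overlap with COL12A1. COL8A1 and COL4A1 overlapped each other in NS control but not in BCL9 KD, where all COL4A1 values were lower. COL9A3 and COL18A1 overlapped in NS control and were separate in BCL9 KD, with COL9A3 above.

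**Figure D2:**
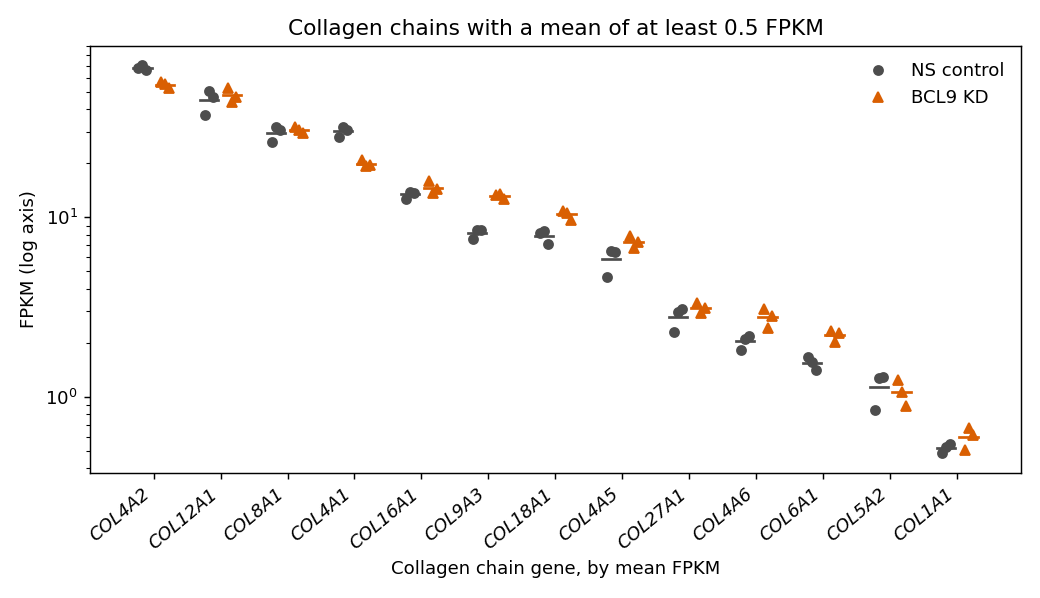
FPKM (log axis) of the 13 chains with a mean of at least 0.5 FPKM, ordered by mean, with a grey circle per NS control sample, an orange triangle per BCL9 KD sample and a bar at each group mean. COL4A1 and COL4A2 lie lower in all 3 BCL9 KD samples, and COL9A3, COL18A1, COL4A5, COL4A6 and COL6A1 lie higher in all 3.

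Of the 13 chains tested, 3 were called. COL9A3 rose, and COL4A1 and COL4A2 fell. Over all genes tested, 807 of 13745 were called (5.87%), 407 higher (2.96%) and 400 lower (2.91%). The median log2 fold change was 0.12 over the 13 chains and 0.04 over all genes, with 10 chains above 0 and 3 below. The values of the groups did not overlap for 7 of the 13 chains, and they did not overlap for 34.2% of all genes. Which chains are called depends on the setting. With a correction for the GC content of each gene, 13.2% of all genes and 4 chains were called (COL4A1, COL9A3, COL18A1 and COL6A1, without COL4A2). With voom on the reads recovered from FPKM, 10.2% of genes were called, and with protein-coding genes only 12.6%, and both added COL18A1 and COL6A1 to the 3 chains. Without NS control replicate 2, BCL9 KD replicate 2 or BCL9 KD replicate 3, 0 chains were called, as were 12, 13 and 5 of all genes, while 7, 6 and 5 chains were at an unadjusted p under 0.05. With the replicate number as a block in limma, 0 of all genes (0.0%) were called, with 3235 at an unadjusted p under 0.05.

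**Figure D3:**
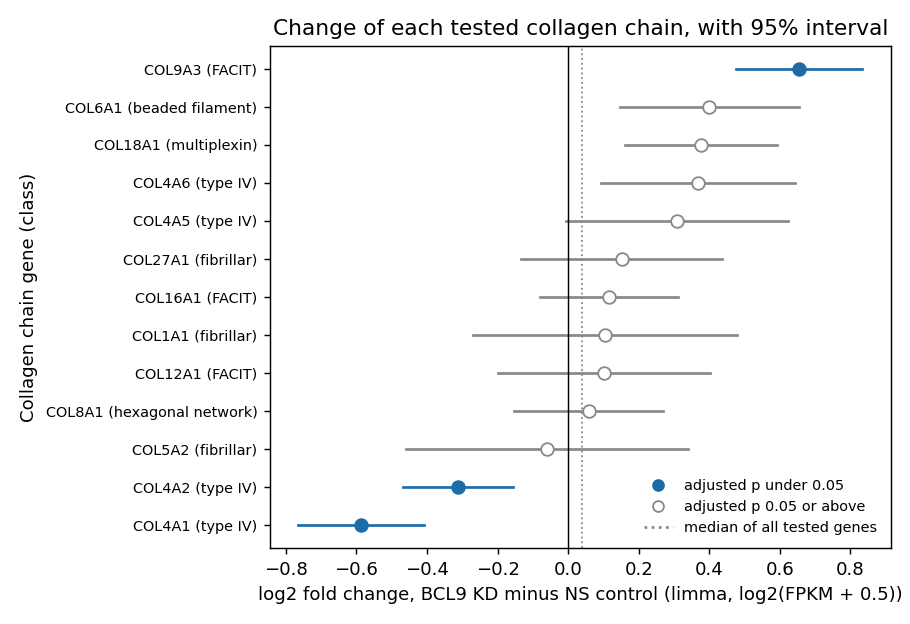
Log2 fold change (BCL9 KD minus NS control, limma on log2(FPKM + 0.5), 3 samples a group) and 95% interval of each tested chain, with filled points for an adjusted p under 0.05 and a dotted line at the median of all tested genes, 0.04. The intervals of COL4A1, COL4A2 and COL9A3 lie away from 0 and are called, and those of COL6A1, COL18A1 and COL4A6 also lie away from 0 without passing the adjusted threshold.

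COL4A1 and COL4A2, the chains of the type IV collagen found in nearly all basement membranes, both fell in BCL9 KD cells. COL4A1 (ENSG00000187498, chr13:110148963-110307149) measured 28.1, 32.1 and 30.6 FPKM in NS control and 20.8, 19.5 and 19.7 FPKM in BCL9 KD. Every BCL9 KD sample lay below every NS control sample. The log2 fold change was −0.59 (SE 0.0751, 95% interval −0.76 to −0.41, adjusted p = 0.0152), a BCL9 KD mean 0.659 times that of NS control. COL4A2 (ENSG00000134871, chr13:110305812-110513027) measured 68.1, 70.5 and 66.4 FPKM in NS control and 57.1, 55.3 and 52.4 FPKM in BCL9 KD, again without overlap. Its fold change was smaller, −0.31 (SE 0.0656, 95% interval −0.47 to −0.16, adjusted p = 0.0456), a ratio of means of 0.805. The COL4A2 call was close to the threshold: it was lost with the GC correction (−0.22, adjusted p = 0.0924), with median-of-ratios scaling (adjusted p = 0.0516), without the limma trend (0.0787), with genes of low FPKM kept (0.0885) and without any 1 of the samples but NS control replicate 3 (adjusted p between 0.0512 and 0.206). COL4A1 kept its call with the GC correction (adjusted p = 0.0170) and lost it without NS control replicate 2 (0.0832), BCL9 KD replicate 2 (0.110) or BCL9 KD replicate 3 (0.113).

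Since the proteins are joined in a trimer, the ratio of their transcripts was compared within each sample. COL4A1 over COL4A2 was 0.412, 0.456 and 0.462 in NS control and 0.363, 0.352 and 0.375 in BCL9 KD, or 0.443 ± 0.0271 and 0.363 ± 0.0119 (SD, n = 3). COL4A2 was the more abundant transcript in every sample, and the ratio was lower in all 3 BCL9 KD samples. The difference was −0.28 on the log2 scale, with a two-sided exact permutation p of 0.1, the smallest that 3 against 3 samples can give, and 0.2 after adjustment over the 2 pairs compared. The deposited spans of the 2 genes share 1338 bases on opposite strands, and the counting is not stated to use strand. In the GENCODE annotation of GRCh37 no exon base of COL4A1 was shared with another gene and 0.493% of those of COL4A2 were. That annotation gives 14662 and 19271 exon bases, beside deposited lengths of 8188 and 8706, so it does not show which counted bases were shared.

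COL4A5 and COL4A6, the chains of a type IV network found in some epithelial and smooth muscle basement membranes, were higher in each BCL9 KD sample than in any NS control sample, and neither was called. COL4A5 (ENSG00000188153, chrX:108439844-108697545) measured 4.68, 6.52 and 6.38 FPKM in NS control and 7.85, 6.79 and 7.31 FPKM in BCL9 KD, with a log2 fold change of 0.31 (95% interval −0.01 to 0.62, adjusted p = 0.190). NS control replicate 1 was the low sample, and without it the fold change was 0.17. COL4A6 (ENSG00000197565, chrX:108155607-108439497) measured 1.82, 2.10 and 2.18 FPKM in NS control and 3.07, 2.42 and 2.83 FPKM in BCL9 KD, with a log2 fold change of 0.37 (95% interval 0.09 to 0.64, adjusted p = 0.102). The ratio of COL4A5 to COL4A6 was 2.57, 3.11 and 2.93 in NS control and 2.56, 2.81 and 2.58 in BCL9 KD, which overlapped (log2 difference −0.11, two-sided exact permutation p = 0.3, adjusted 0.3). COL4A5 and COL4A6 together made up 6.33, 7.73 and 8.09% of type IV FPKM in NS control and 12.3, 10.9 and 12.3% in BCL9 KD. With the values of the X-linked pair higher and those of the chromosome 13 pair lower, the type IV sum was 107 ± 4.41 FPKM in NS control and 85.2 ± 3.46 FPKM in BCL9 KD. The third pair, COL4A3 and COL4A4, stayed under the filter, with at most 26 and 42 reads.

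**Figure D4:**
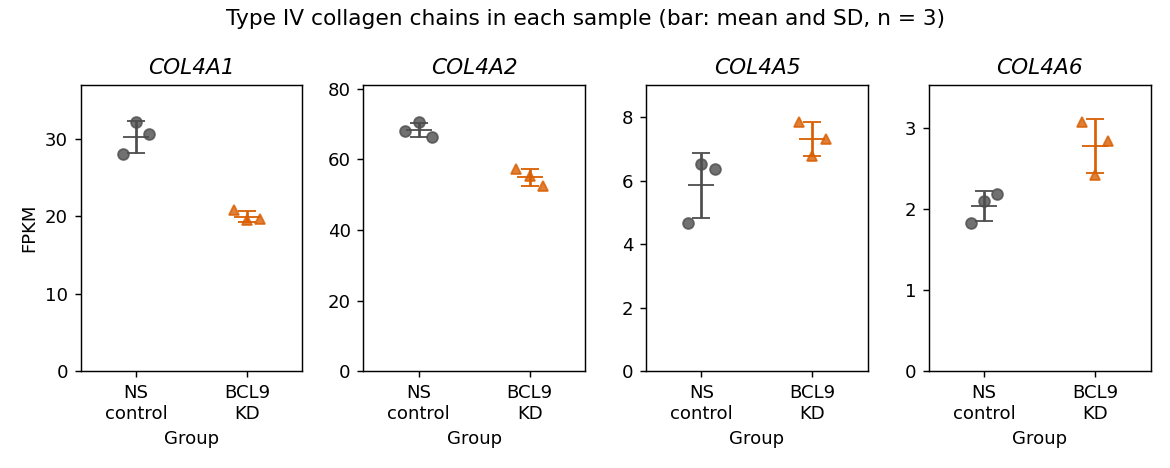
FPKM of the 4 expressed type IV chains in each of 3 NS control (grey circles) and 3 BCL9 KD (orange triangles) samples, with the mean and SD of each group and an axis from 0 for each chain. COL4A1 and COL4A2 are lower in every BCL9 KD sample, and COL4A5 and COL4A6 are higher in every BCL9 KD sample, of which only the changes of COL4A1 and COL4A2 were called.

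COL9A3, a chain of type IX collagen that is best known from the surface of cartilage fibrils, rose in BCL9 KD cells. COL9A3 (ENSG00000092758, chr20:62816244-62841159) measured 7.61, 8.49 and 8.49 FPKM in NS control and 13.3, 13.6 and 12.7 FPKM in BCL9 KD, from 624 to 1769 reads. The groups were far apart relative to their SDs of 0.507 and 0.443 FPKM. The log2 fold change was 0.66 (SE 0.0754, 95% interval 0.48 to 0.83, adjusted p = 0.0117), a ratio of means of 1.61. The call held with the GC correction (0.72, adjusted p = 0.0148) and was lost without NS control replicate 2 (0.0746), BCL9 KD replicate 2 (0.0972) or BCL9 KD replicate 3 (0.0922). COL9A3 overlaps TCFL5 on the opposite strand, which shares 3.20% of its exon bases in the GRCh37 annotation and measured 7.33 and 7.92 FPKM on average (log2 fold change 0.11, adjusted p = 0.550).

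The other chains of the type IX trimer were low or absent. COL9A1 had no read, and COL9A2 measured 0.276, 0.357 and 0.190 FPKM in NS control and 0.572, 0.420 and 0.492 FPKM in BCL9 KD, from 12 to 47 reads. All 3 COL9A2 values were higher in BCL9 KD, and with no filter on low FPKM its adjusted p was 0.343.

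The other expressed FACITs overlapped between the groups. COL12A1, which binds type I fibrils, measured 37.4, 50.7 and 46.9 FPKM in NS control and 52.7, 44.3 and 47.2 FPKM in BCL9 KD (log2 fold change 0.10, 95% interval −0.20 to 0.40, adjusted p = 0.623). COL16A1 measured 12.7, 13.9 and 13.7 FPKM in NS control and 15.9, 13.7 and 14.3 FPKM in BCL9 KD (0.12, 95% interval −0.08 to 0.31, adjusted p = 0.388). The low NS control value of COL12A1 was again that of replicate 1. Without that sample the fold change of COL12A1 was −0.02, and without BCL9 KD replicate 1 that of COL16A1 was 0.06.

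COL18A1, the basement membrane multiplexin from which endostatin is cut, was higher in each BCL9 KD sample and lay at the edge of the threshold. COL18A1 (ENSG00000182871, chr21:45405137-45513720) measured 8.22, 8.37 and 7.08 FPKM in NS control and 10.9, 10.5 and 9.70 FPKM in BCL9 KD. The log2 fold change was 0.38 (95% interval 0.16 to 0.59, adjusted p = 0.0566). The adjusted p was 0.0214 with the GC correction and 0.0368 with voom, but 0.0874 with median-of-ratios scaling and 0.0600 to 0.217 when a sample was left out. COL18A1 was called in 4 of 20 settings. The gene on the opposite strand, SLC19A1, shares 18.5% of the COL18A1 exon bases in the GRCh37 annotation, and it measured 5.13 and 4.45 FPKM on average (log2 fold change −0.18, adjusted p = 0.275). Reads from the shared bases cannot be told apart without strand. The other multiplexin, COL15A1, had at most 1 read.

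COL6A1, a chain of the beaded filaments of type VI collagen, showed a like pattern at a lower level. COL6A1 (ENSG00000142156, chr21:45981737-46005050) measured 1.66, 1.56 and 1.41 FPKM in NS control and 2.32, 2.01 and 2.27 FPKM in BCL9 KD (log2 fold change 0.40, 95% interval 0.15 to 0.65, adjusted p = 0.0718). All BCL9 KD values were higher, and the adjusted p was 0.0340 with the GC correction and 0.0486 with voom, but 0.154 with quantile normalization, 0.172 with genes of low FPKM kept and 0.0668 to 0.258 when a sample was left out. COL6A1 was called in 3 of 20 settings. Its partners were low: COL6A2 had at most 42 reads and 0.441 FPKM, and COL6A3, which encodes the largest chain of the trimer, had at most 6 reads.

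COL8A1, a short chain that builds hexagonal networks in vessel walls and the cornea, was the third most abundant chain and overlapped between the groups. It measured 26.3, 31.9 and 30.8 FPKM in NS control and 32.1, 30.7 and 29.7 FPKM in BCL9 KD (log2 fold change 0.06, 95% interval −0.15 to 0.27, adjusted p = 0.697). Its partner chain COL8A2 had at most 9 reads, 0.113 FPKM. Without NS control replicate 1 the fold change of COL8A1 was −0.02. The interval over all samples leaves out a change as large as that of COL9A3 or COL4A1.

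The 3 tested fibrillar chains were low and none was called. COL27A1 was the most abundant at 2.30 to 3.09 FPKM in NS control and 2.93 to 3.32 FPKM in BCL9 KD (log2 fold change 0.15, 95% interval −0.13 to 0.44, adjusted p = 0.441). COL5A2, a chain of the type V collagen that starts and limits fibrils, measured 0.843 to 1.29 FPKM and 0.892 to 1.23 FPKM (−0.06, 95% interval −0.46 to 0.34, adjusted p = 0.843). COL1A1, the main chain of type I collagen, measured 0.484 to 0.542 FPKM and 0.507 to 0.665 FPKM (0.10, 95% interval −0.27 to 0.48, adjusted p = 0.693). Without NS control replicate 1 the fold change of COL27A1 was 0.04, and without BCL9 KD replicate 2 that of COL1A1 was 0.06. The groups overlapped for all 3, and the wide intervals of COL5A2 and COL1A1 rest on 81 to 205 reads. The partner chains were close to absent, with at most 2 reads on COL1A2 and 1 read on COL5A1, beside 81 to 176 reads on COL1A1 and 100 to 205 on COL5A2.

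The 30 chains under the filter are given by their highest value in any sample. COL5A3 reached 0.587 FPKM, COL9A2 0.572, COL7A1 0.540, COL22A1 0.512, COL6A2 0.441, COL13A1 0.348, COL11A2 0.237, COL2A1 0.179, COL4A4 0.158, COL4A3 0.136, COL10A1 0.117 and COL8A2 0.113 FPKM. The remaining 18 stayed at or below the 0.0812 FPKM of COL14A1: COL26A1, COL6A6, COL21A1, COL28A1, COL24A1, COL6A3, COL1A2, COL25A1, COL15A1, COL11A1, COL19A1, COL6A5, COL20A1, COL5A1, and COL3A1, COL9A1 and COL23A1 with no read. COL7A1, the anchoring fibril collagen that epithelia make to fasten the basement membrane to the stroma, measured 0.334, 0.518 and 0.540 FPKM in NS control and 0.460, 0.446 and 0.415 FPKM in BCL9 KD, which overlapped. COL13A1, a transmembrane chain, was higher in each BCL9 KD sample (0.114 to 0.245 against 0.299 to 0.348 FPKM), and COL2A1, the cartilage fibril chain, was lower in each (0.0824 to 0.179 against 0.0343 to 0.0394 FPKM). These rest on at most 54 and 18 reads, and with no filter their adjusted p-values were 0.368 and 0.236.

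Genes whose products modify, export, bind or cut collagen, and basement membrane partners such as laminin chains, were counted together. The lists held 65 genes, of which 46 were tested. Of these, 3 rose and 2 fell (10.9% of the 46, beside 5.87% of all genes), and their median log2 fold change was 0.03 beside 0.04 over all genes. The genes called were MMP2, MMP14, P3H3, LOXL2 and LAMC1, and no list was tested as a whole.

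Among 16 tested genes of collagen modification and folding, only P3H3, a prolyl 3-hydroxylase family member, was called (0.816 ± 0.130 FPKM in NS control and 1.58 ± 0.151 in BCL9 KD, SD, n = 3, log2 fold change 0.67, adjusted p = 0.0428). It was higher in all 3 BCL9 KD samples, but it rests on 47 to 211 reads, and its adjusted p was 0.0466 without NS control replicate 3 and between 0.0552 and 0.197 without any other sample. It was 0.0737 with quantile normalization and 0.123 with genes of low FPKM kept. The collagen chaperone SERPINH1 had a log2 fold change of 0.15 (adjusted p = 0.261), the prolyl 4-hydroxylases P4HA1 and P4HA2 of 0.05 (0.807) and −0.11 (0.388) and the lysyl hydroxylase PLOD2 of 0.08 (0.820). None of these passed the test, and with the GC correction P4HA1 was at −0.12, P4HA2 at −0.04, PLOD2 at −0.17 and SERPINH1 at 0.23. Leaving out a sample gave −0.09 to 0.13 for P4HA1 and −0.17 to 0.28 for PLOD2, both lowest without NS control replicate 1.

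Among 11 tested genes of export, processing and crosslinking, LOXL2, a lysyl oxidase-like enzyme that crosslinks type IV collagen, fell. It measured 11.0, 11.4 and 10.8 FPKM in NS control and 7.16, 7.39 and 7.39 FPKM in BCL9 KD (log2 fold change −0.57, SE 0.0667, adjusted p = 0.0122). The groups were far apart, and the call was lost without NS control replicate 2 (0.0826), BCL9 KD replicate 2 (0.0985) or BCL9 KD replicate 3 (0.103). The fold change was −0.03 for LOX (adjusted p = 0.904) and −0.08 for PXDN, the peroxidase that forms sulfilimine bonds in type IV collagen (adjusted p = 0.499). Neither sign was stable: LOX ranged from −0.21 to 0.10 when a sample was left out, and PXDN was at 0.01 with the GC correction.

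No collagen receptor was called among 5 tested. ITGB1, the beta subunit shared by the collagen-binding integrins, measured 95.4 ± 21.0 FPKM in NS control and 134 ± 3.35 FPKM in BCL9 KD (log2 fold change 0.51, adjusted p = 0.0997, and 0.0433 with the GC correction). NS control replicate 1 was low for ITGB1, at 71.8 FPKM against 103 and 112 FPKM in the others, and without it the fold change was 0.32. The fold changes of ITGA2 (0.16, adjusted p = 0.581) and the receptor kinase DDR1 (−0.05, adjusted p = 0.607) had no stable sign: ITGA2 was at −0.05 without NS control replicate 1, and DDR1 at 0.02 with the GC correction.

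Of 3 tested proteases that cut collagen, 2 rose, where 2.96% of all genes were called higher. MMP2, a gelatinase that also cuts type IV collagen, measured 9.44, 9.12 and 8.91 FPKM in NS control and 15.2, 16.4 and 16.0 FPKM in BCL9 KD (log2 fold change 0.76, SE 0.0683, adjusted p = 0.00753). MMP14, the membrane-bound collagenase that activates MMP2, measured 52.3, 52.8 and 48.7 FPKM in NS control and 66.5, 68.4 and 66.2 FPKM in BCL9 KD (0.38, SE 0.0638, adjusted p = 0.0290). The groups did not overlap for either gene, and both calls were lost without NS control replicate 2 (0.0636 and 0.119), BCL9 KD replicate 2 (0.0589 and 0.160) or BCL9 KD replicate 3 (0.0700 and 0.157). The MMP14 call was also lost with median-of-ratios scaling (0.0505), without the limma trend (0.0551) and with genes of low FPKM kept (0.0598), where that of MMP2 was kept.

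Of 11 tested basement membrane partners, LAMC1, the gamma chain shared by most laminins, fell (118 ± 5.54 and 93.5 ± 5.30 FPKM, SD, n = 3, log2 fold change −0.34, adjusted p = 0.0466). It was lower in all 3 BCL9 KD samples and lost its call without NS control replicate 1 (0.0536) or 2 (0.172) and without BCL9 KD replicate 2 (0.205) or 3 (0.206). The call was also lost without the limma trend (0.0785) and with genes of low FPKM kept (0.107). NID1, which links laminin to type IV collagen, was close to absent (0.0196 and 0.00726 FPKM on average) and was not tested.

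**Figure D5:**
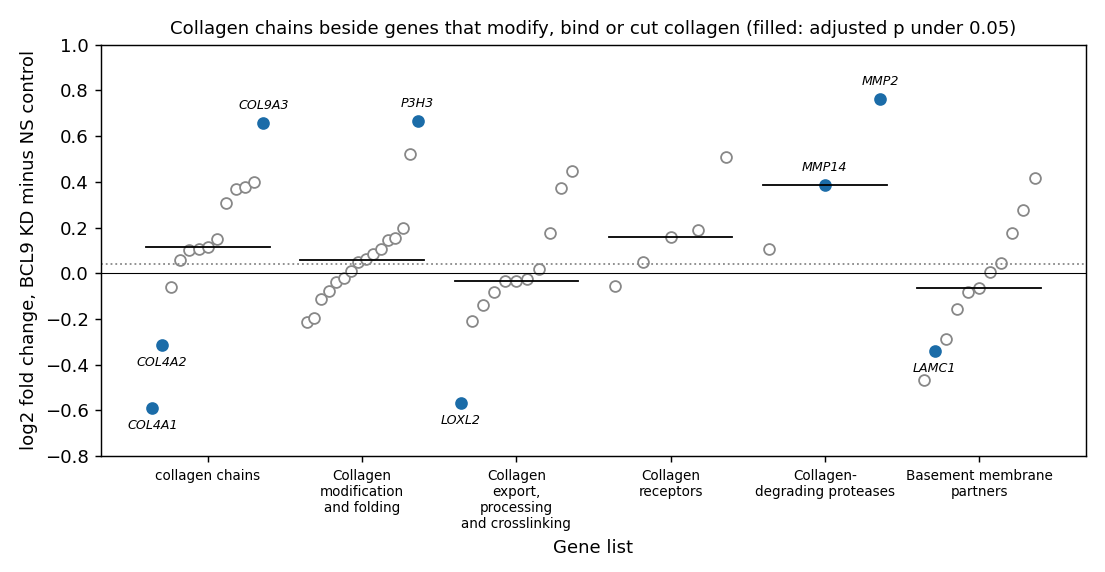
Log2 fold change (BCL9 KD minus NS control, log2(FPKM + 0.5) scale) of the 13 tested chains and the 46 tested genes of 5 related lists, with filled points for an adjusted p under 0.05, a bar at each list's median and a dotted line at the median of all genes, 0.04. COL4A1, COL4A2, LOXL2 and LAMC1 are the filled points below 0, and COL9A3, P3H3, MMP2 and MMP14 those above.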

How the data were processed

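RNA-seq of DCIS.COM cells was compared between 3 NS control and 3 BCL9 KD samples. Per the submitters' processing notes, the authors used CASAVA, STAR, HTSeq 0.6.1 and hg38. They deposited FPKM values, computed from read counts, with the gene length of each row. The methods also name Tophat for parsing the alignments and Cufflink for no stated step. The authors used DESeq2 and edgeR for differential expression, tests that take counts. Their methods speak of 2 biological replicates in each condition, while the labels and the table hold 3, and all 3 were used. FPKM multiplied by length gave whole reads for 100% of values within a tolerance of 0.1. Reads without molecular identifiers do not stand for separate molecules, so read depth bounds only the counting error. Replicates had Pearson correlations of log2 values of 0.964 to 0.987.

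Genes with a mean of at least 0.5 FPKM were tested with limma 3.58.1 in R 4.3.3 (empirical Bayes with trend) on log2(FPKM + 0.5), with Benjamini-Hochberg adjustment at 0.05. The GC correction subtracted a loess curve (span 0.3) of log2 values on transcript GC content, known for 98.8% of tested genes. Ratios of partner chains were compared by two-sided exact permutation tests. The p-values measure the spread between flasks. The fit was also run on simulated reads with the same extra spread for all genes and no GC or replicate effect. That run does not measure how far the calls in these data hold. Python 3.11 with pandas 2.3.3 and matplotlib 3.10.9 made the tables and plots. All 43 chains lay where RefSeq GRCh38.p14 places them.

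The alternatives were other added values (1 and 0.1 FPKM), filters, scalings and limma options, protein-coding genes only, voom, the GC correction, a replicate block and leaving out each sample. Named were all tested chains, the chains under the filter by their highest value, called genes of the related lists and 12 fixed genes of those lists. The members and lists were chosen with earlier results of these data known. Amino acid sequences were not used here.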

Additional observations from a re-analysis of the deposited data

How the results depend on the processing

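The directions of COL4A1, COL4A2, COL9A3, COL18A1, COL6A1, COL4A5, COL4A6, COL16A1, COL27A1 and COL1A1 were the same in every alternative run, with no value for COL1A1 at a mean of at least 1 FPKM, where it was not tested. The fold change of COL5A2 turned positive with the GC correction (0.00303), with and without the replicate block, without NS control replicate 2 or 3 (0.01 each) and without BCL9 KD replicate 3 (0.0218), and it ranged from −0.195 to 0.0218 when a replicate was left out. Those of COL12A1 and COL8A1 turned to −0.0241 and −0.0248 without NS control replicate 1, with ranges of −0.0241 to 0.193 and −0.0248 to 0.112 when a replicate was left out. The cause was not tested for any of these.

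Beside 3 chains, 807 genes and 5 related genes called, no filter on low FPKM gave 142 genes and 2 related genes, and no trend gave 332 and 3. Protein-coding genes only gave 5 chains, 1409 genes and 8 related genes, voom gave 5, 1403 and 9, and the GC correction gave 4, 1789 and 10. Leaving out a replicate gave 0 to 3 chains, 5 to 1729 genes and 0 to 7 related genes. The cause was not tested.

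The replicate block gave 0 chains, 0 genes and 0 related genes (COL4A1 adjusted p = 0.0826, COL9A3 0.0788, COL4A2 0.121), and 6 chains and 3235 genes at an unadjusted p under 0.05. With the block and the GC correction together, 1 chain (COL9A3, adjusted p = 0.0488), 448 genes (305 higher, 143 lower) and 2 related genes were called. Deviations of same-numbered samples had correlations of −0.147, −0.0884 and −0.00287, and 0 of 6 samples correlated best with its own number. With only 3 samples in each group, these values cannot show whether flasks of the same number were handled together. The labels do not say, and the main comparison was left without pairing. Chains of under about 10 reads are limited by depth.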

Other observations

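Besides the protein-coding genes, 8 noncoding rows of the table were named after a collagen gene: 5 antisense RNAs and 3 pseudogenes. All had a mean under 0.5 FPKM and at most 9 reads in any sample. COL4A2-AS1 measured 0.245, 0.641 and 0.365 FPKM in NS control and 0.314, 0.344 and 0 FPKM in BCL9 KD, from at most 7 reads. COL4A2-AS2 measured 0.174, 0.227 and 0.389 FPKM in NS control and 0.112, 0.171 and 0.294 FPKM in BCL9 KD, from at most 9 reads. The groups overlapped for both, and neither was tested. COL5A1-AS1 and the pseudogene COL6A4P2 had no read.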
